A study of Mus musculus with 6 samples.

Results

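The genes described here are 34 mouse genes that make, take up, store, move or export cholesterol, or that control those steps, out of 21900 protein-coding genes of the RefSeq annotation. They were taken as a named list by function, with earlier results of these data known. They comprise 7 genes of the mevalonate steps, 10 of the sterol steps, 5 that regulate the SREBP factors, 2 uptake receptors, 5 of intracellular transport and storage, and 5 of efflux and the LXR receptors. A RUNX1 peak was assigned to a gene when its summit, the position of highest signal, lay inside the gene body or within 10 kb of either end. Of 51515 peaks in the 4 lists, 189 fell in these windows.

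RUNX1, a DNA-binding transcription factor, was mapped by ChIP-seq in granulosa cells, the somatic cells around the oocyte. The animals were CBA x C57BL/6 F1 mice, 21 days old, given 5 IU of eCG to stimulate follicles and, 46 h after it, 5 IU of hCG in place of the luteinising hormone surge. The 0 h group is labelled pre-ovulatory (0 h after hCG) and the 6 h group peri-ovulatory (6 h after hCG), each with 2 libraries and 1 pooled input. One treatment text, which describes collection 6 h after hCG, is given for all samples, and 0 h samples were told apart by title and time label. No genotype beyond the cross is given, and the labels do not say whether the libraries come from separate animals, so differences between libraries may be technical. Peaks measure binding, not expression, so the cell type label could not be checked with marker genes.

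Cells build cholesterol from acetyl-CoA through mevalonate, squalene and lanosterol. When membrane sterol is low, SCAP carries the SREBP factors out of the endoplasmic reticulum for cleavage, and these then bind sterol response elements, often beside NF-Y and SP1 sites, in the promoters of synthesis genes. Granulosa cells that turn into luteal cells after the ovulatory surge use cholesterol as the precursor of progesterone, obtained by synthesis, by uptake from lipoproteins through SCARB1 and other receptors, and from stored esters.

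The sequences at the starts of 4 synthesis genes are shown first, because each start lay under a peak of both 6 h libraries and these 4 peaks had the highest mean rank by fold among members with a start sequence that could be printed. The starts of Nr1h3 and Tm7sf2 in the promoter entries, over which no 6 h peak lay, are shown for contrast. The Nr1h3 start shown lies inside the gene body. A peak of 6 h replicate 2 alone, of fold 7.89, had its summit 7670 bp before that start. This summit was 43 bp from the upstream end of the Nr1h3 body. Each is the RefSeq promoter window on GRCm38.p6, 250 bases before to 50 after the start, read 5′ to 3′ along the gene. Capitals mark matches to 4 motifs on either strand. The RUNX core was searched as TGTGGT and as the variant TGCGGT. The NF-Y box was searched as CCAAT, which appears as ATTGG where it lies on the opposite strand. The sterol response element, bound by SREBP, was TCACNCCAC with N for any base, and the E-box, a site of basic helix-loop-helix factors, was CACGTG. The windows are Sc5d, chr9:42264251-42264550, minus strand; Acat2, chr17:12960676-12960975, minus strand; Hmgcs1, chr13:119690101-119690400, plus strand; Hsd17b7, chr1:169969156-169969455, minus strand; Nr1h3, chr2:91195067-91195366, minus strand; and Tm7sf2, chr19:6067801-6068100, minus strand.
Sc5d: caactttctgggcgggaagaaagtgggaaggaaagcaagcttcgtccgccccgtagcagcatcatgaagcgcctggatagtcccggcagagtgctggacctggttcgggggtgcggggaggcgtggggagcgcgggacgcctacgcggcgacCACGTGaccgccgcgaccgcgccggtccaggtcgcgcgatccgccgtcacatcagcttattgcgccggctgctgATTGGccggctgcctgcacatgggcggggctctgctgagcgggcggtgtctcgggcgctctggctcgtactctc
Acat2: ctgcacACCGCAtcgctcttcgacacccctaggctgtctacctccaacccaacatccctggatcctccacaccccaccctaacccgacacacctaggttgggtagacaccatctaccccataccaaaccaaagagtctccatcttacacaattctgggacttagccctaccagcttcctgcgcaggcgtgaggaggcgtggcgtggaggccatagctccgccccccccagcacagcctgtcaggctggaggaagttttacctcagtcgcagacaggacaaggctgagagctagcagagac
Hmgcs1: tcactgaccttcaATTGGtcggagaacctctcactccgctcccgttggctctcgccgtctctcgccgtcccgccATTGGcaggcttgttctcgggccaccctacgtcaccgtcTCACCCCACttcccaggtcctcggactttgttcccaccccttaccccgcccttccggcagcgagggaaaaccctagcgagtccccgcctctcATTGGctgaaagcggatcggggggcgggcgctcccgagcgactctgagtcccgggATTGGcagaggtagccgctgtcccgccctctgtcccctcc
Hsd17b7: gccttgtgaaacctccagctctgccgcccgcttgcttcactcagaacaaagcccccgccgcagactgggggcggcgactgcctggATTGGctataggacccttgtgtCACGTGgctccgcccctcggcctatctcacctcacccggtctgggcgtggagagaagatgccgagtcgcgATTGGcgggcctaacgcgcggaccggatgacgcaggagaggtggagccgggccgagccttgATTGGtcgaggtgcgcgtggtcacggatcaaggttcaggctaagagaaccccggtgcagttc
Nr1h3: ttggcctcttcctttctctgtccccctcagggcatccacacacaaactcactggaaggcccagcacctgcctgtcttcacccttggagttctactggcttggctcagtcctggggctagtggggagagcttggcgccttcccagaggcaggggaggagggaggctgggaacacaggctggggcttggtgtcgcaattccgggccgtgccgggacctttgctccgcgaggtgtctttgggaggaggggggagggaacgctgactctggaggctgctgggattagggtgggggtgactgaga
Tm7sf2: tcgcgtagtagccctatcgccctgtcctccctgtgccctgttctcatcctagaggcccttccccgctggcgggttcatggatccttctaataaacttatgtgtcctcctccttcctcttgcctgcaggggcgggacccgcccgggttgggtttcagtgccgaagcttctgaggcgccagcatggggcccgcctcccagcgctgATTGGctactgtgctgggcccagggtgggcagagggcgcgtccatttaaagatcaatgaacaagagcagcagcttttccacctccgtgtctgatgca
Of these 6 windows, the one of Acat2 holds a RUNX core, the variant in reverse as ACCGCA, 244 bases before the start, while the Acat2 summits lay 241 and 152 bases after the start. The Hmgcs1 window holds 4 NF-Y boxes and 1 sterol response element, and its summits lay 91 and 115 bases after the start. Sc5d has 1 NF-Y box and 1 E-box with summits 68 and 76 bases before the start, and Hsd17b7 has 3 NF-Y boxes and 1 E-box with summits 99 and 104 bases before it.

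Peaks near the cholesterol genes were few at 0 h and were found at nearly every member at 6 h. A gene without a peak may still hold signal below the limit of the peak calls. At 0 h, 4 members had a peak in replicate 1 (11.8%, against 4.39% of 21866 other protein-coding genes) and 12 in replicate 2 (35.3%, against 15.1%). At 6 h, 31 had a peak in replicate 1 (91.2%, against 53.7%) and 33 in replicate 2 (97.1%, against 62.4%). The 189 peaks divided into 4, 13, 72 and 100 for 0 h replicates 1 and 2 and 6 h replicates 1 and 2. The whole lists hold 948, 3135, 18761 and 28671 peaks, so the members' peaks were 0.422% (exact 95% CI 0.115 to 1.08), 0.415% (0.221 to 0.708), 0.384% (0.3 to 0.483) and 0.349% (0.284 to 0.424) of each list. The shares thus stayed between 0.349% and 0.422% while the lists grew from 948 to 28671 peaks. The intervals treat peaks as independent and do not cover differences between libraries, so whether the 2 rises were equal was not tested. Per 100 kb of window, members held 0.237, 0.77, 4.26 and 5.92 peaks and other genes 0.0726, 0.274, 1.55 and 2.16, in the same order of libraries. Members were of like length to other genes, with medians of 19300 and 17100 bp.

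A replicated peak was one with overlapping intervals in both libraries of a time point. At 0 h, 4 of 34 members had one (11.8%, exact 95% CI 3.3 to 27.5, against 4.08% of other genes): Fdft1, Srebf1, Scarb1 and Lrp1. At 6 h, 30 had one (88.2%, 72.5 to 96.7, against 53.1%). The exceptions were Pmvk, with a peak in replicate 1 only, and Insig2, Abcg1 and Nr1h3, with peaks in replicate 2 only. By role, the 6 h count was 6 of 7 mevalonate genes, 10 of 10 sterol genes, 4 of 5 SREBP regulators, 2 of 2 uptake receptors, 5 of 5 transport and storage genes and 3 of 5 efflux and LXR genes. Of a fixed list of 21 other pathway genes, 2 had a replicated peak at 0 h (9.52%), Lrp8 and Gramd1a, and 16 at 6 h (76.2%). Genes of that list without one at 6 h were Ebp, Lipa, Stard5, Plin2 and Cyp27a1. The 0 h count rested on the shorter list: without 0 h replicate 1 it was 12. Within 1 kb of a gene end the 0 h difference turned, with 0 members against 1.49% of other genes. Requiring −log10 q of 20 or more left 2 members at 0 h, against 1.63% of other genes. With gene bodies only, 18 members had a replicated 6 h peak, against 33.8% of other genes. With all lists cut to the 948 peaks of lowest p, 3 members kept a replicated 6 h peak, Fdft1, Scarb1 and Lrp1, against 3.19% of other genes.

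**Figure D1:**
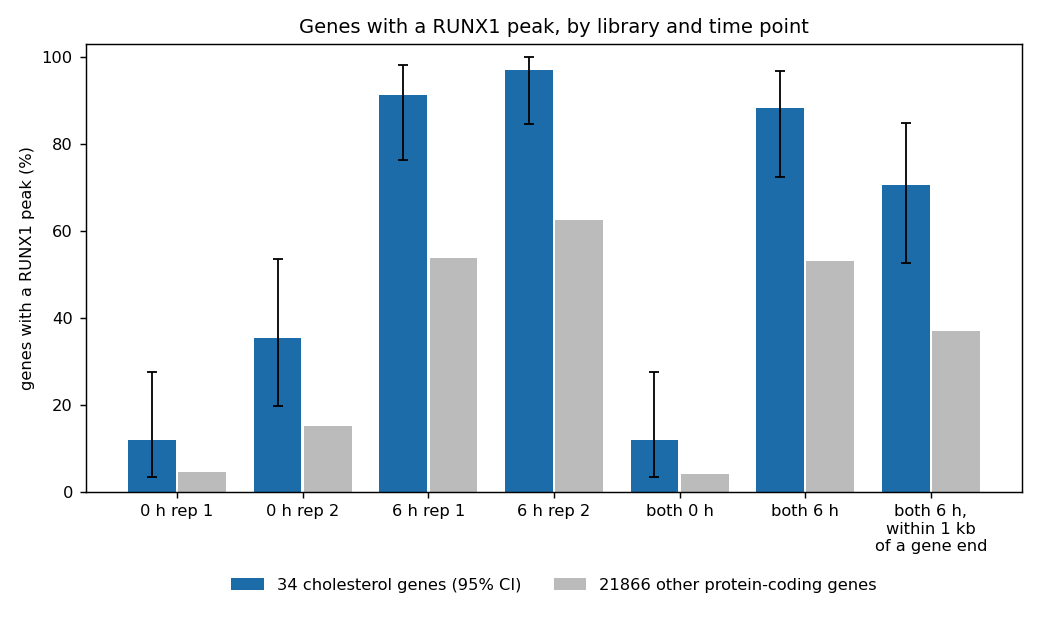
Share of genes (%, y axis) with a RUNX1 summit in the gene body or within 10 kb, for each library, for peaks found in both libraries of a time point, and for replicated 6 h peaks within 1 kb of a gene end. Blue bars are the 34 cholesterol genes with exact 95% intervals and grey bars the 21866 other protein-coding genes; the blue bar is the higher of each pair, and both rise from 0 h to 6 h.

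For 24 of 34 members each 6 h library had more peaks than each 0 h library (70.6%, exact 95% CI 52.5 to 84.9, against 46.8% of other genes). For each of these 24 the two-sided exact permutation test of the mean peak number gave p = 0.33, the smallest that 2 libraries against 2 allow, so no member could pass 0.05. Of the other 10 members, 6 had 1 peak in 0 h replicate 2 that tied with a 6 h library, as at Mvk, Cyp51, Hsd17b7, Sc5d, Hmgcs1 and Mylip, and 4 had no peak in a 6 h library. The same pattern held for 13 of the 21 other pathway genes (61.9%). With lists cut to equal length, which takes away the excess of 6 h peaks by construction, it held for 0 members and 1.12% of other genes.

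**Figure D2:**
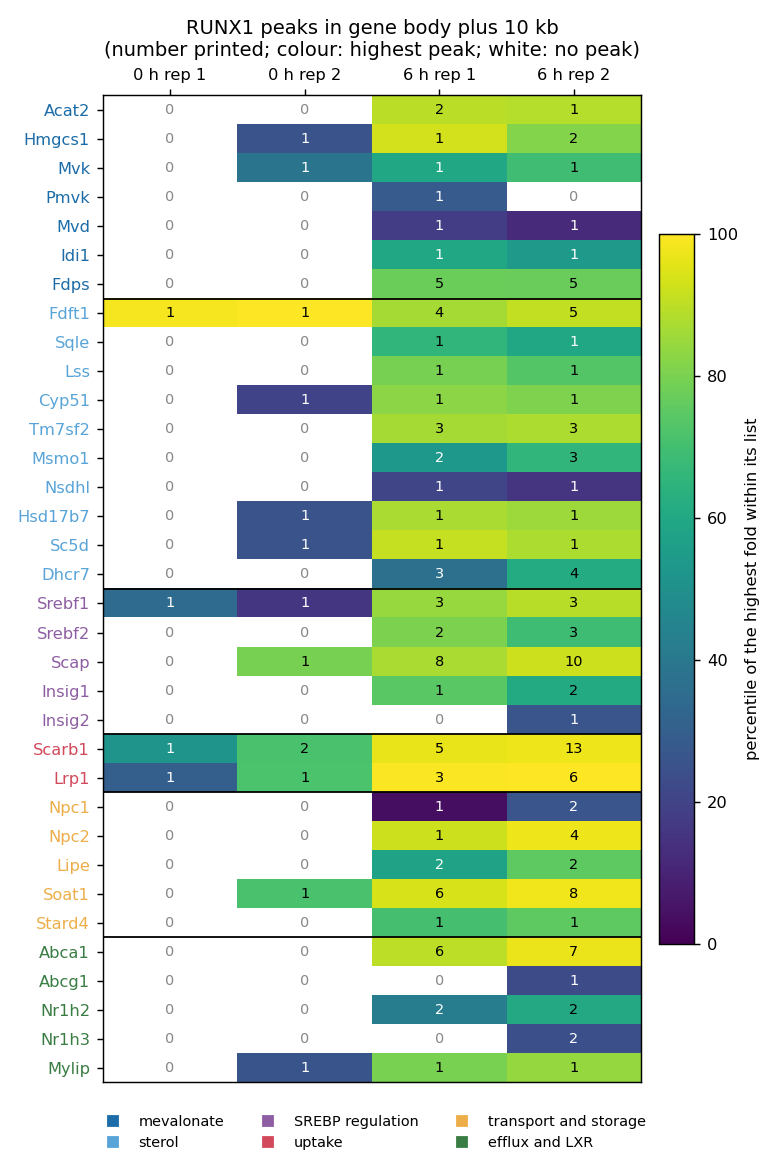
Number of RUNX1 peaks (printed) near each of the 34 genes (rows, grouped by role) in each of the 4 libraries (columns); colour is the percentile within its list of the gene's highest peak by fold, and white means no peak. The 6 h columns are nearly filled, while 0 h replicate 1 has peaks at Fdft1, Srebf1, Scarb1 and Lrp1 alone.

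Overlapping peaks of the 4 lists merged into 102 sites near members. Of these, 68 were in both 6 h lists, 31 in 6 h replicate 2 only and 3 in 6 h replicate 1 only. Of the 68, 56 had no 0 h peak, 8 had a peak in 0 h replicate 2 only, and 4 had one in both 0 h lists. No site had a 0 h peak without a 6 h peak. Sites differed in place as well: 27 of the 68 had their summit within 1 kb of an end of the member, 29 lay deeper inside the gene and 12 lay farther outside. At the window's edge, each 6 h list had 3 peaks between 9 and 10 kb from a member and 1 between 10 and 11 kb.

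Of 17 synthesis genes, 13 had a replicated 6 h peak within 1 kb of an end, and 14 of their 28 replicated 6 h sites lay there. Over all members the count was 24 of 34 (70.6%, against 37.0% of other genes), and over the other pathway genes 13 of 21 (61.9%). Where RefSeq promoter entries gave a start and strand (27 members), 22 had a replicated 6 h peak within 1 kb of a start (81.5%, exact 95% CI 61.9 to 93.7, against 39.7% of 17465 other genes), and 1, Srebf1, had a replicated 0 h peak there (3.7%, against 1.56%). The summits of 25 such 6 h sites lay from 678 bp before to 389 bp after the nearest start, with a median 34 bp before it, and 22 were within 250 bp. The members without a replicated 6 h peak near a start were Pmvk, Tm7sf2, Insig2, Npc2 and Nr1h3, of which Pmvk, Insig2 and Npc2 had one in a single 6 h library. Nr1h3 had a peak of 6 h replicate 2 at the upstream end of its body, where no promoter entry gives a start.

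**Figure D3:**
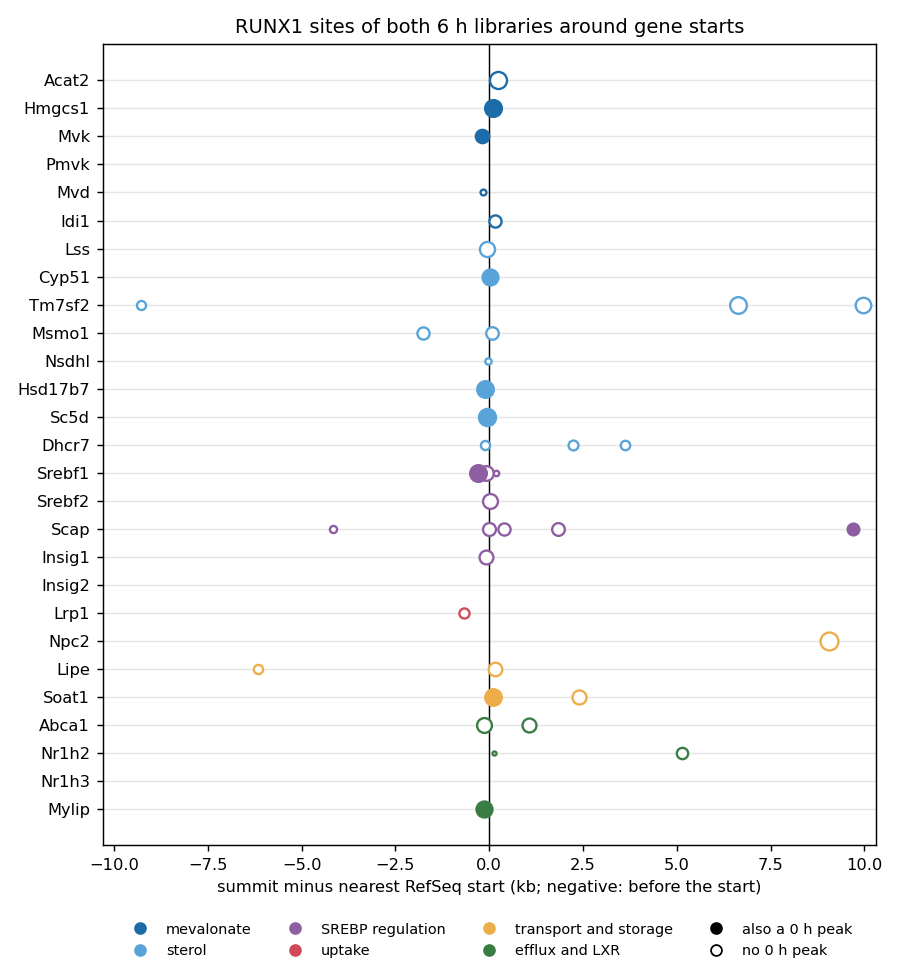
Distance in kb (x axis; negative is before the start) from the nearest RefSeq start to the summit of each RUNX1 site found in both 6 h libraries, for the 27 members with a start (rows); sites over 10 kb away are not drawn. Filled circles also have a 0 h peak, and larger circles rank higher by fold; most rows have a circle at the start itself, within 678 bp before to 389 bp after it.

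Within the mevalonate steps the fold of a peak, its reads over the local background as MACS2 gives it, was highest at Acat2 and Hmgcs1. Acat2, the cytosolic acetoacetyl-CoA thiolase, had no 0 h peak and folds of 17.7 and 23.1 at 6 h, on 116 and 111 reads over the summit (chr17:12959923-12960860). Hmgcs1, which makes HMG-CoA, had no peak in 0 h replicate 1, a fold of 6.22 in 0 h replicate 2 and folds of 20.4 and 18.3 at 6 h (chr13:119689918-119691063). Reads over the Hmgcs1 summit were 31 in 0 h replicate 2 and 134 and 99 at 6 h. Both sites thus stood clear of the median fold of the 6 h lists, 8.59 and 10.7.

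The other mevalonate genes had lower peaks. Mvk, mevalonate kinase, had a fold of 6.78 in 0 h replicate 2 and of 9.65 and 14.3 at 6 h, 181 bp before its start. An end of the neighbouring gene Mmab, with its start and finish not told apart, also lay within 1 kb. Mvd, which decarboxylates mevalonate diphosphate, had folds of 6.09 and 6.63 at 6 h, at percentiles 18.1 and 12.2. Idi1, isopentenyl diphosphate isomerase, was near the middle with 9.63 and 11.2. Fdps, farnesyl diphosphate synthase, had 5 sites in both 6 h lists, with folds from 6.3 to 16.6, and 3 of them lay inside the adjacent gene Rusc1. Pmvk, phosphomevalonate kinase, had a peak of fold 6.91 in 6 h replicate 1 alone, 8 bp before a RefSeq start.

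Fdft1, squalene synthase and the first enzyme committed to sterols, differed from the other synthesis genes. Its main site lay inside the gene, 16871 bp from the nearer end (chr14:63164333-63165159), and was among the highest peaks of the 0 h lists. The 0 h folds were 19.9 and 28.2 (105 and 144 reads over the summit), and the 6 h folds 15.8 and 25.2 (167 and 196 reads). By fold it ranked at percentiles 98.7 and 99.7 of the 0 h lists and 86.5 and 90.7 of the 6 h lists. The local background under the site was 4.33 and 4.15 before hCG and 9.64 and 6.83 after it, so the fold did not rise although more reads were counted. Fdft1 also had 3 lower sites in both 6 h lists, and none within 1 kb of its ends.

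The remaining sterol enzymes were mostly marked by 1 site at the start. Sc5d, sterol C5-desaturase, had folds of 18.6 and 22.3 at 6 h and of 6.22 in 0 h replicate 2. Hsd17b7, a 3-ketosteroid reductase of the pathway, had 16.2 and 20.3, and Cyp51, lanosterol demethylase, 14.2 and 18, with 0 h replicate 2 folds of 6.22 and 5.92. None of these 3 sites had a peak in 0 h replicate 1. Lss, lanosterol synthase, had folds of 13.2 and 15.3 and Sqle, squalene epoxidase, 10.5 and 12.2, with no 0 h peak at either.

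Msmo1, which removes C4 methyl groups, had a site at its start of folds 8.93 and 13.4 and another 1757 bp before it. Nsdhl, its partner dehydrogenase, had folds of 6.36 and 6.98. An end of the neighbouring gene Cetn2, with its start and finish not told apart, lay within 1 kb of that site. Dhcr7, the reductase that acts on dehydrocholesterol, had 3 sites in both 6 h lists with folds between 6.38 and 12.6, of which 1 lay 109 bp before a RefSeq start. Tm7sf2, a sterol C14-reductase, had 3 sites, all outside the gene by 1598 to 9279 bp and each inside or beside another gene (Mrpl49 and Fau, Znhit2, Vps51). With peaks given only to the nearest gene, 13 of the 17 synthesis genes kept a replicated 6 h peak and Mvk, Tm7sf2 and Nsdhl lost theirs. Over all members the count was then 27, against 43% of other genes.

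Over the synthesis genes, the folds at gene-end sites spanned 6.09 to 20.4 in 6 h replicate 1 and 6.63 to 23.1 in replicate 2. Of the 17, 0 had a replicated peak in the top 10% by fold of both 6 h lists, a class so small (7.21% of other genes) that 0 of 17 is near the background. A 0 h peak overlapped the gene-end site at 5 of the 17, Hmgcs1, Mvk, Cyp51, Hsd17b7 and Sc5d, each in replicate 2 alone and with 27 to 32 reads over the summit. Over all members, 7 of 34 had a 0 h replicate 2 summit within 1 kb of a gene end (20.6%, exact 95% CI 8.7 to 37.9), against 8.02% of other genes.

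Among the regulators, Srebf1, which encodes SREBP1, was the member with a replicated 0 h peak near a start. The site, 307 bp before a RefSeq start (chr11:60222678-60223245), had folds of 6.73 and 5.65 at 0 h and 14.9 and 23.4 at 6 h. Reads were 30 and 32 at 0 h and 110 and 133 at 6 h. Srebf1 had 2 more sites in both 6 h lists, near other starts. Srebf2, for the main factor of cholesterol synthesis, had folds of 13.5 and 14.2 at its start and no 0 h peak.

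Scap, the escort protein of the SREBPs, had 8 sites in both 6 h lists, the most of any member. Its strongest lay inside the gene, 17965 bp from the nearer end (chr9:110366447-110367172), with folds of 16.2 and 27.1 and no 0 h peak. Another, 9699 bp after the nearest start, had a fold of 9.48 in 0 h replicate 2 and 9.25 and 10.9 at 6 h. Insig1, which holds SCAP in the endoplasmic reticulum when sterol is ample, had 1 broad site of 1793 bp over its start with folds of 12.1 and 12.5 on 166 and 120 reads. Its paralog Insig2 had a peak of fold 8.04 in 6 h replicate 2 alone.

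Of 34 members, 5 had a replicated peak in the top 10% by fold of both 6 h lists (14.7%, exact 95% CI 4.95 to 31.1, against 7.21% of other genes), and all 5 were among the 12 genes of uptake, transport, storage, efflux and LXR: Scarb1, Lrp1, Npc2, Soat1 and Abca1. None was among the 5 SREBP regulators or the 17 synthesis genes, but several of these fell just short. Abca1 passed at percentiles 90.1 and 96.9, while Sc5d reached 91.1 and 87.8, Acat2 89.7 and 88.8, Scap 87.3 and 92.2, Fdft1 86.5 and 90.7, and Hmgcs1 93.2 and 81.5. The roles also differed in gene length: Soat1, Scarb1, Lrp1 and Abca1 span 46221 to 129200 bp and Npc2 18554 bp, against 5030 to 40008 bp for the synthesis genes. The part of length in the count was not tested. None of the 5 peaks was within 1 kb of an end of its member. Over all 68 sites the median percentile was 66 and 65.6 for the 27 at gene ends and 55 and 71.2 for the other 41 (6 h replicates 1 and 2), so no common order of the 2 kinds of site held in both libraries. The other pathway genes had 2 of 21 in this class (9.52%), Mbtps1 and Lrp8.

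**Figure D4:**
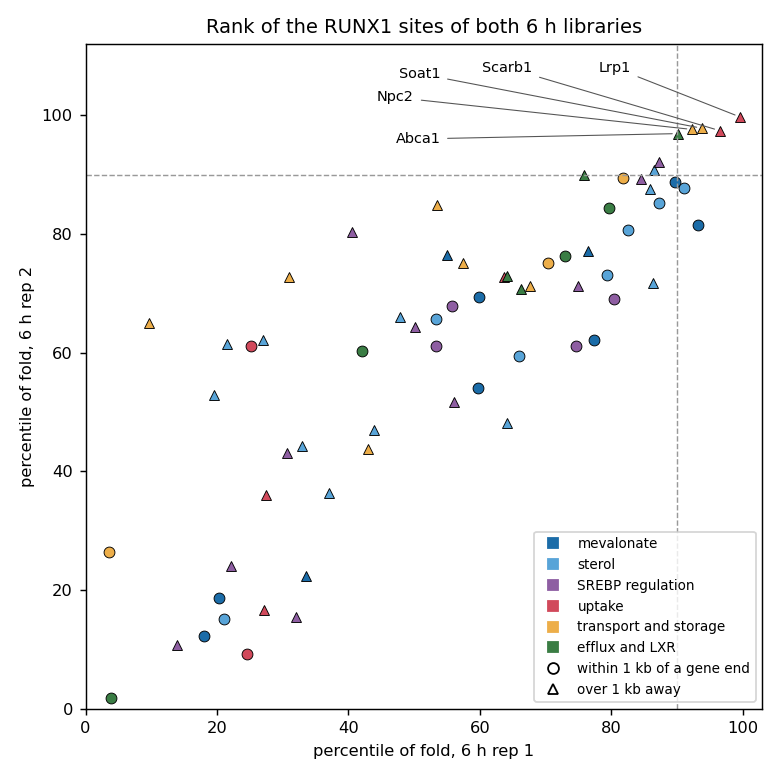
Percentile by fold within 6 h replicate 1 (x axis) and replicate 2 (y axis) of the 68 RUNX1 sites found in both lists; colour is the gene's role, circles are sites within 1 kb of an end of the member and triangles the rest. Beyond the dashed lines at the 90th percentile of both lists are 5 named sites, all triangles.

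Lrp1, a large endocytic receptor for lipoproteins and many other ligands, had the highest-ranked site. It lay 16475 bp inside the gene (chr10:127603884-127605578), with folds of 6.51 and 8.66 at 0 h and 41.3 and 63.6 at 6 h, on 29 and 34 reads at 0 h and 213 and 268 at 6 h. The 6 h percentiles were 99.6 and 99.7. A weaker site 678 bp before its start had folds of 6.64 and 12.5 at 6 h only.

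Scarb1, the HDL receptor that delivers cholesteryl esters to steroid-making cells, had 5 sites in both 6 h lists and 13 peaks in 6 h replicate 2. Its main site, 23609 bp inside the gene (chr5:125316683-125317852), had folds of 7.76 and 7.03 at 0 h and 25.3 and 39.8 at 6 h. Reads were 74 in each 0 h library and 146 and 187 at 6 h. A site 47 bp from a gene end was among its weakest, with folds of 6.61 and 6.28.

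In transport and storage, Soat1, which esterifies cholesterol for storage, had 6 replicated 6 h sites. The one in the top 10% of both 6 h lists lay outside the gene body and is not described further. The site at the Soat1 start, 105 bp after it, had a fold of 8.57 in 0 h replicate 2 and of 14 and 23.8 at 6 h. Npc2, which hands cholesterol to NPC1 in the lysosome, had 1 replicated site in mid-gene (chr12:84763512-84765062) with folds of 19.5 and 40.9 on 106 and 172 reads, and no 0 h peak.

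Npc1, the lysosomal membrane transporter, had a weak site near a gene end with folds of 4.49 and 8.04. Stard4, a cytosolic sterol carrier, had folds of 11.2 and 15.9 near a gene end, with no 0 h peak. Lipe, hormone-sensitive lipase, which frees cholesterol from esters, had folds of 9.37 and 15.9 at a start and 5.33 and 13.2 at a second site inside Cxcl17.

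In efflux, Abca1, the lipid exporter, had 5 replicated 6 h sites and no 0 h peak. The highest (chr4:53121742-53122424) lay 37998 bp inside the gene, with folds of 17.8 and 37.3 on 77 and 129 reads, and the one at its start had folds of 11.7 and 16.3. Nr1h2, for LXR beta, had 2 weaker sites, with folds of 4.57 and 4.85 at its start and 7.93 and 12.3 beside Pold1. Mylip, an LXR-induced ubiquitin ligase that degrades lipoprotein receptors, had a fold of 6.22 in 0 h replicate 2 and 13.3 and 19.8 at 6 h. Abcg1, another exporter, had 1 peak of fold 7.75, and Nr1h3, for LXR alpha, had 2, of 6.03 and 7.89, all in 6 h replicate 2 alone.

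Level comparisons between time points were possible at the 4 sites found in all lists. Reads over the summit were divided by the genome-wide background of their library (2.77 and 2.65 at 0 h, 2.76 and 2.13 at 6 h) to set the libraries on one scale. That background was an estimate, the lowest recovered local background held by a set minimum share of the library's peaks. The scaled reads went from 11.6 ± 1.67 at 0 h to 101 ± 34.4 at 6 h (mean ± SD, n = 2 each) at Lrp1, a ratio of 8.71. They went from 11.5 ± 0.88 to 51.1 ± 16 at Srebf1 (ratio 4.47), from 27.3 ± 0.855 to 70.3 ± 24.7 at Scarb1 (2.57) and from 46.1 ± 11.6 to 76.3 ± 22.3 at Fdft1 (1.65). At all 4 sites both 6 h libraries were above both 0 h libraries, and the two-sided exact permutation p was 0.33 each, the smallest possible.

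Those ratios were set beside the 812 sites of the genome found in all 4 lists, whose median ratio was 3.71 and of which 12 (1.48%) were lower at 6 h. Lrp1 was at the 99th percentile of these ratios, Srebf1 at 65.8, Scarb1 at 27.1 and Fdft1 at 10.5. A ratio above 1 was thus the rule for such sites, and the members spread over nearly the whole range. These sites had to pass the peak limit in the sparse 0 h lists, which leaves out sites with little 0 h signal.

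**Figure D5:**
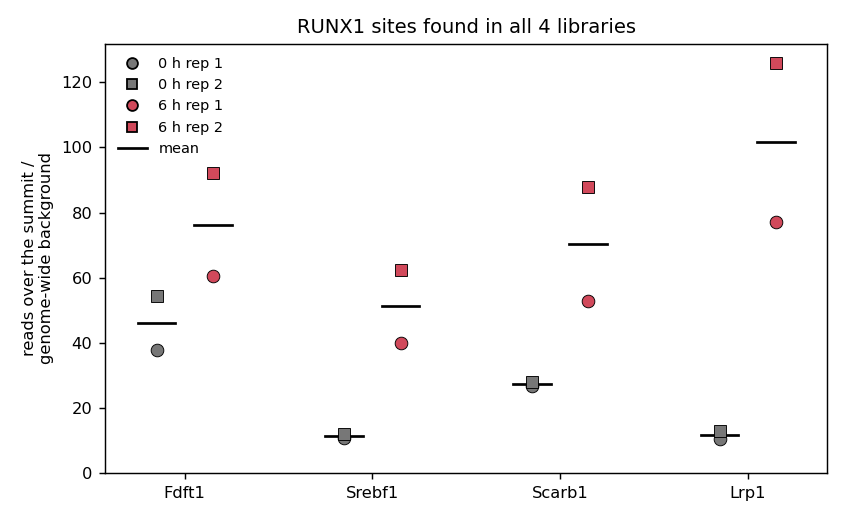
Reads over the summit divided by the library's genome-wide background (y axis) at the 4 member sites found in all libraries; grey symbols are 0 h, red symbols 6 h, circles replicate 1, squares replicate 2 and bars the means of 2 libraries. At each gene both red symbols lie above both grey ones, with the widest gap at Lrp1 (11.6 to 101) and the narrowest in proportion at Fdft1 (46.1 to 76.3).

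The promoter windows were searched on both strands for 9 motifs in the 27 members with an entry. A RUNX core (TGTGGT or TGCGGT) was in 4 of 27 (14.8%), Acat2, Pmvk, Lss and Lipe, against 24.4% of 17465 other genes. In Acat2 and Lss the core was in the window of a start under both 6 h peaks, in Lipe it was in the window of another start with no such peak, and Pmvk had no start under both peaks. The NF-Y box CCAAT was in 20 (74.1%, against 42.3%), including 13 of 14 synthesis genes, and the SP1 box GGGCGG in 24 (88.9%, against 49.2%), again in 13 of 14. The E-box CACGTG was in 7 (25.9%, against 8.89%). The sterol response element, in the form TCACNCCAC, was in Hmgcs1 alone (3.7%, against 1.4%). Only this form was searched, in windows of 300 bases, so variant or more distant elements were not counted.

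AAGGTCA, bound by NR5A receptors, was in 2 windows, Hmgcs1 and Dhcr7 (7.41%, against 4.73%). The AP-1 motif TGANTCA was in Msmo1 and Dhcr7 (7.41%, against 8.12%), and the GATA motif AGATAA in Insig2 and Npc2 (7.41%, against 11.2%). TGTGGT by itself was in Lss and Lipe (7.41%, against 17.2%) and TGCGGT in Acat2 and Pmvk (7.41%, against 8.51%). Over all 21263 windows the shares were 15% for TGTGGT, 7.44% for TGCGGT, 38.2% for CCAAT, 46.2% for GGGCGG, 7.84% for CACGTG, 1.19% for TCACNCCAC, 4.08% for AAGGTCA, 6.99% for TGANTCA and 9.65% for AGATAA. The sites deep inside Lrp1, Scarb1, Abca1 and Fdft1 lie outside these windows, and their sequence was not analysed here. Fdps, Scarb1, Fdft1, Sqle, Abcg1, Npc1 and Stard4 have no entry.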

How the data were processed

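RUNX1 ChIP-seq of granulosa cells gave 4 deposited peak lists, 1 per library, and the inputs entered only through the authors' peak calls. Per the submitters' processing notes, reads were aligned with Bowtie2 2.2.5 to mm10 (GRCm38) and peaks came from MACS2, whose version is not stated. The settings, read filters and sequencing depth are not given in the sources used here. The deposited lists give each peak's fold, a ratio of reads to local background, with a −log10 p-value and a −log10 q-value. The score deposited by the authors is an integer form of that p-value and was not used. Each fold and p-value depends on its library's depth and input, so folds were ranked only within a list.

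Reads over each summit and the local background were recovered from the deposited fold and −log10 p, as MACS2 defines both, for 100% of peaks (misfit in −log10 p at most 0.005). Genes and their ends were taken from RefSeq GRCm38.p6, and starts and strand from its promoter table, which held 27 of the 34 members. Replicate peaks had to share 1 bp. Groups and replicate numbers came from the sample titles. Intervals are exact Clopper-Pearson 95% intervals and cover counting error only. Per-gene peak counts were compared by exact permutation over libraries.

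The members, the other pathway genes and the motifs were chosen with earlier results of these data known, so shares are set beside those of other genes with no test. The genes described one by one were those with a replicated 0 h peak, those in the top 10% of both 6 h lists and the strongest of each role, and the others follow by role. The code was tested on simulated peaks. Alternatives were other windows, assignment to the nearest gene, a stricter q-value, equal list lengths, stricter overlap and leaving out each library. Python 3.11.15, numpy 2.4.6, pandas 2.3.3, scipy 1.17.1 and matplotlib 3.10.9 were used.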

Additional observations from a re-analysis of the deposited data

How the results depend on the processing

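The 4 members with a replicated 0 h peak became 0 within 1 kb of a gene end, 2 with −log10 q of at least 20, and 2 with each list cut to 948 peaks (Fdft1 and Scarb1 in both). Leaving out 1 library gave 4 to 12, the highest without 0 h replicate 1. The 30 members at 6 h became 18 with gene bodies only and 3 with lists of equal length, and 30 to 33 without 1 library. The excess over other genes at 0 h, 7.69 percentage points, reversed to -1.49 within 1 kb of a gene end. It was 3.02 with windows of 50 kb, 4.25 with the stricter q-value, 3.01 with equal lists, and 7.37 to 20.2 without 1 library, the highest without 0 h replicate 1. At 6 h, 35.2 points became 19.2 with gene bodies only and 5.63 with equal lists, and 34.6 to 37.5 without 1 library. The 24 members with more peaks in each 6 h library became 0 with equal lists, and 24 to 30 without 1 library. The other alternatives left the counts within 1.5 times of the values given: 8 of 12 for the 0 h count, 10 of 12 for the 6 h count and 9 of 10 for the last. Cutting lists removes low peaks by construction, and the cause of the other shifts was not tested.

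The libraries share only a replicate number: deviations from the time-point means correlated at r = 0.069 over 21900 genes. With the replicate block, the smallest exact p was 0.5, against 0.33 without it, so neither could pass 0.05.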
